A study of Mus musculus with 1470 samples.

Results

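The 9 genes described here encode receptors by which natural killer (NK) cells read other cells, or which have long served to tell NK cells from other lymphocytes: Ncr1, Klrb1c, Klrk1, Klrd1, Klrc1, Klrc2, Klre1, Klra7 and Klrg1. They were taken by symbol from a table of 14915 gene rows, in which all 9 were present, and were followed across 1470 single cells of the mouse liver. The cells were NPCs, the non-parenchymal fraction that remains when hepatocytes are set aside, from male C57BL/6J mice, a wild-type inbred strain, released by collagenase digestion in vivo and sorted singly. In the high-fat diet (HFD) group, 3 mice received 60% of their calories as fat for 9 weeks from 5 weeks of age, and in the normal diet (ND) group 3 mice received chow. Levels were measured with Smart-seq2, a full-length single-cell RNA-seq protocol without molecular identifiers, as RPKM (reads scaled to transcript length and to the mapped reads of the cell, a scale per length on which genes can be set side by side). The questions were in which liver cells each receptor gene was found, whether T cells carried it, and whether the diet groups differed.

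NK cells are innate lymphocytes that kill stressed, infected or transformed cells without a rearranged antigen receptor. They weigh signals from activating receptors, which work through adaptor proteins, against signals from inhibitory receptors that recognise MHC class I molecules on healthy cells. Most of these receptors in the mouse are lectin-like proteins encoded in the NK gene complex of chromosome 6, and the liver is known for its many NK cells, for tissue-resident innate lymphoid cells and for T cells that carry NK receptors, such as NKT cells.

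In the RefSeq annotation of GRCm38.p6, the assembly behind mm10, 7 of the 9 genes lay within chr6:128778485-130233322, a stretch of 1454.84 kb, in the order Klrb1c, Klre1, Klrd1, Klrk1, Klrc2, Klrc1 and Klra7. Klrg1 lay outside that stretch at chr6:122270596-122282833, and Ncr1 on another chromosome at chr7:4337715-4345184. RefSeq promoter windows, each from 250 bases before to 50 bases after an annotated start, were matched for 7 of the 9 genes, all but Klrd1 and Klrg1. Windows are shown for Ncr1, Klrb1c and Klrk1, which most NK-like cells carried, and for Klrc2, which a minority carried, and all were searched on both strands for the core letters TGTGGT (RUNX factors), AGGTGT (T-box factors) and AGGAAG (ETS factors). Some genes have 2 windows, which makes 11 in all. TGTGGT or its reverse complement was present in 8 of the 11 windows, from 6 of the 7 genes, against 16.8% of all 32851 windows. The 2 windows of Ncr1 overlap and hold the same matches, as do the 2 of Klrc2, so these count double among the 8. AGGAAG was present in 3 of the 11 against 35.4% of all windows, and AGGTGT in 0 of the 11 against 13.7%. A match is only a description of the letters. The following windows read 5′ to 3′ on the strand of the gene, with the matches in capitals and overlapping matches run together. Ncr1 (chr7:4337465-4337764, plus strand) held TGTGGT at -176 and its reverse complement at -41 from the annotated start. Klrb1c (chr6:128788592-128788891, minus strand) held TGTGGT at -89 and AGGAAG at -126, -105 and -101. Klrk1 (chr6:129623815-129624114, minus strand) held TGTGGT at -129, and Klrc2 (chr6:129660547-129660846, minus strand) its reverse complement at -36 and -9.
Ncr1: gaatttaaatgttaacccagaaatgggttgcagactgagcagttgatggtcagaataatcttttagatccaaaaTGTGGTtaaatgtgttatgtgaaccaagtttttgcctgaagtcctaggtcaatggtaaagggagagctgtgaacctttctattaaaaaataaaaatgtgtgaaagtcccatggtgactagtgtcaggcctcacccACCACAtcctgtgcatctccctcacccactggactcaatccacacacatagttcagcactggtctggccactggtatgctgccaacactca
Klrb1c: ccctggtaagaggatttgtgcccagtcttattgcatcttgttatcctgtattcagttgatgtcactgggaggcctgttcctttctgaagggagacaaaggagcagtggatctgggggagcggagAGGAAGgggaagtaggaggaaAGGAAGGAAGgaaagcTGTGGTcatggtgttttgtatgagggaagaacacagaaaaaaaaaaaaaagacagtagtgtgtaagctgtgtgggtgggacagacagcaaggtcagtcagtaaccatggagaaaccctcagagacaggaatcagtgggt
Klrk1: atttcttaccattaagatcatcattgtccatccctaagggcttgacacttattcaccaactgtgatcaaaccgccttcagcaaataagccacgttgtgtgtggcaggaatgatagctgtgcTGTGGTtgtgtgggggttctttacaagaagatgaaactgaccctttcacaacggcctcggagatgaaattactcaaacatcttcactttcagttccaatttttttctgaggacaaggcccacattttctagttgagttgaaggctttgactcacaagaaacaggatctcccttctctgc
Klrc2: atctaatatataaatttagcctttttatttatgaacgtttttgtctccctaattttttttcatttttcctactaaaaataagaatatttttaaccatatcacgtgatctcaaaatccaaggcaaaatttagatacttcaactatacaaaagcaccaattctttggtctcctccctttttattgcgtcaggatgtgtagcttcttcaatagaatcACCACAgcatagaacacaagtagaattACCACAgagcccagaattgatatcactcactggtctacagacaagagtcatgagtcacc
The remaining RUNX letters were those of Klrc1 at -87 and Klre1 at -229. Klra7 had no such match in its windows.

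Populations come from a new clustering that used neither the 9 genes nor any other Klr gene, and are called "-like" because their names rest on markers. T-like cells had Cd3d or Cd3e, parts of the T cell receptor complex, at 50 RPKM or more, and NK-like cells had neither at that level. By this division 15 T-like cells came from the NK cluster and the others from T clusters. The 27 cells of T clusters with neither gene at that level were set aside as CD3-low. Their mean log2(RPKM + 1) was 1.75 for Cd3g and 2.17 for Lck, against 8.55 and 7.75 in T-like cells. Of the markers of macrophages and dendritic cells, S100a4, Ms4a6c and Naaa, named after their values were seen, were at 5.59, 3.40 and 3.30, against 3.80, 1.48 and 0.65 in T-like cells. They were picked from a longer list whose other markers are not given here, so they do not describe the list. No cell type is given to the CD3-low cells. There were 41 NK-like cells, of which 7, 5 and 5 came from ND mice 1, 2 and 3 and 5, 17 and 2 from HFD mice 1, 2 and 3. T-like cells numbered 58, 56 and 52 in ND mice 1, 2 and 3 and 53, 65 and 21 in HFD mice 1, 2 and 3. At a detection level of 1 RPKM, 105 were CD4 T-like cells, 55 CD8 T-like cells and 28 had both Cd4 and Cd8b1, and those lacking both numbered 15, 9 and 22 in the ND mice and 16, 43 and 12 in the HFD mice. Median depth was 88292 to 199780 estimated exon reads per cell over the 6 mice. Cells of HFD mouse 2 were lowest in reads and in genes detected, with a median of 1595.5 genes against up to 3163 elsewhere, and 43 of its 65 T-like cells fell among those lacking both co-receptors. Of the 10 T markers other than Cd3d and Cd3e, which the division itself set, 5 were at 50 RPKM in no NK-like cell, but Lck was so in 60.98%, Cd247 in 29.3%, Lat in 19.5% and Cd3g in 14.6%, and their part in the results was not tested. Of the NK markers 10 of 14 reached 50 RPKM in at least 50% of NK-like cells.

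The level at which a receptor gene counts as present mattered, because a single read gave a median value of 2.58 to 12.5 RPKM depending on the gene and such values occurred in every population. Ncr1 was at 1 RPKM or more in 18.7% of T-like, 15.9% of B-like and 17.5% of endothelial-like cells with a median of 1 read where found. In NK-like cells it was found in 92.7% with a median of 247 reads. B-like and endothelial-like cells should lack these receptors, so shares at 1 RPKM near theirs were read as background, and cells are counted below at 50 RPKM or more. The reads behind 50 RPKM differ by gene, being more for Klrk1 (2.58 RPKM per read) than for Klrc2 (12.5), and by depth. The lowest estimated depth was 3473 reads, in HFD mouse 2, and in such a cell 1 read can exceed 50 RPKM. At that level each of the 9 genes was present in 0 to 1 B-like cells, of which there were 22 to 53 per mouse, the upper limit that a count of 0 allows (3 cells) being 1.22%. Among 475 endothelial-like cells the count ranged from 1 cell for Klra7 to 15 for Klrd1.

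**Figure D1:**
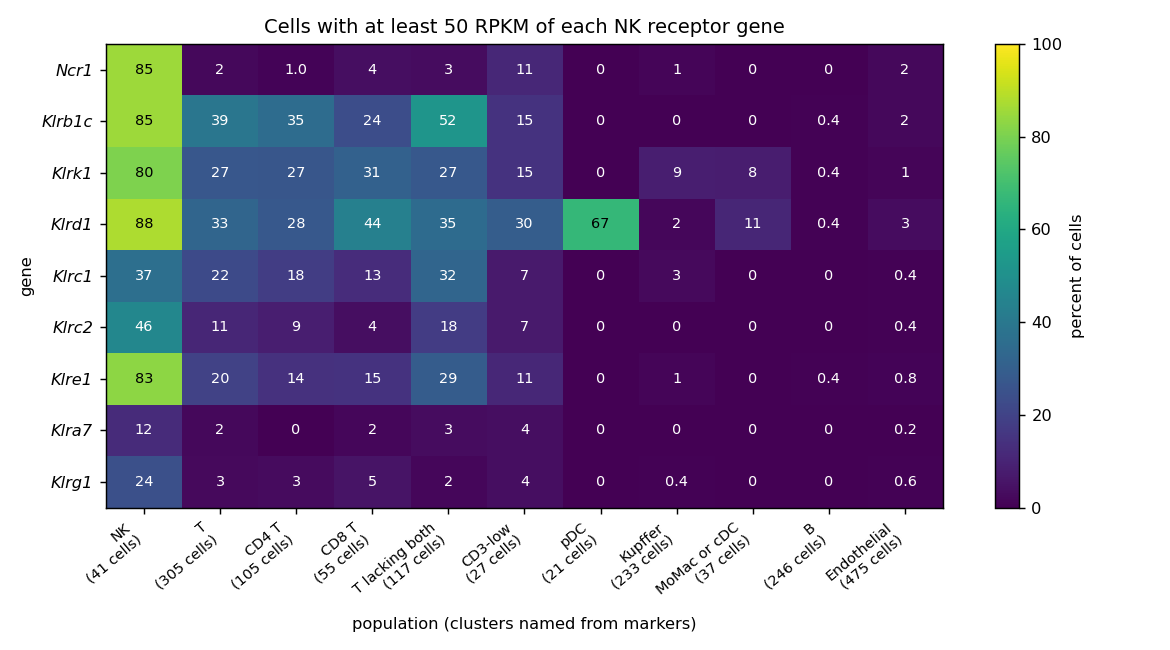
Percent of cells with at least 50 RPKM of each receptor gene (rows) in 11 populations (columns, with their number of cells); the T column holds CD4, CD8, both and lacking both. Klrd1, Ncr1, Klrb1c, Klre1 and Klrk1 were present in 80.5% to 87.8% of NK-like cells, Klrd1 also in 66.7% of pDC-like cells, and no gene in more than 0.407% of B-like cells.

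The NK-like cells carried the receptors in combination. A median of 6 of the 9 genes, with a range of 1 to 8, was present per NK-like cell, and 36 of the 41 cells had 4 or more. Among T-like cells 45 (14.8%) had 4 or more and 37.05% had none. Of the B-like cells 99.2% had none, and 1 Kupffer-like and 3 endothelial-like cells had 4 or more. Averaged over mice, all 9 genes were highest in NK-like cells. For Ncr1, Klrb1c, Klrk1 and Klre1 the gap to the next population exceeded the sum of both populations' SDs over mice. For Klrd1, Klrc1, Klrc2, Klra7 and Klrg1 it did not, and the second place was held by pDC-like cells (Klrd1), T-like cells lacking both co-receptors (Klrc1, Klrc2) and the CD3-low cells (Klra7, Klrg1).

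Ncr1 encodes NKp46, an activating receptor of the immunoglobulin family and the only one of the 9 that is not lectin-like. Its mean log2(RPKM + 1) in NK-like cells was 9.999, 10.24 and 9.69 in ND mice 1, 2 and 3, 10.87 in HFD mouse 1 and 7.71 in HFD mouse 2. HFD mouse 3 had only 2 NK-like cells and is left out of means over NK-like cells. All 5 mice were high, and HFD mouse 2 was lowest, with 12 of its 17 cells at 50 RPKM or more against at least 4 of 5 in each other mouse. In T-like cells of the 6 mice the mean ranged from 0.21 to 1.20, against 0.17 to 1.14 in B-like cells, so the ranges overlapped. Only 7 T-like cells (2.30%) reached 50 RPKM of Ncr1. All 7 also had Klrk1, Klrd1 and Klre1, as well as the adaptor genes Tyrobp and Fcer1g. Cd3d was present in 7, Cd3g in 6 and Cd3e in 5 of them, Cd3d and Cd3e being the genes that defined T-like cells. Of the 7 cells, 4 came from the NK cluster and 3 from T clusters, in which Ncr1 was present in 1.03% of T-like cells.

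Klrb1c encodes NK1.1, the surface antigen by which NK cells of C57BL/6 mice are usually recognised. It was at 6.80, 7.47 and 10.40 in NK-like cells of ND mice 1, 2 and 3, and at 9.71 and 8.24 in HFD mice 1 and 2. Unlike Ncr1, it was common in T-like cells, where 120 cells (39.3%) had it and the mean was 3.30 to 4.57 over the 6 mice. Reads of Klrb1c and of its neighbours Klrb1a and Klrb1b could be mistaken for each other where their sequences are alike, although only uniquely mapped reads were counted. Klrk1 encodes NKG2D, an activating receptor for stress-induced relatives of MHC class I, and was at 7.36, 7.27 and 6.60 in the ND mice and 8.71 and 6.95 in HFD mice 1 and 2. Its spread over mice in NK-like cells, 0.80, was the smallest of the 9 genes except Klra7 at 0.70. Klrk1 was present in 83 T-like cells (27.2%).

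Klrd1, Klrc1 and Klrc2 belong together, since the CD94 protein of Klrd1 forms the ligand-binding receptor with either NKG2A, the inhibitory product of Klrc1, or NKG2C, the activating product of Klrc2. Klrd1 was at 9.26, 6.90 and 8.60 in NK-like cells of the ND mice and at 7.42 and 9.45 in HFD mice 1 and 2. Klrc1 was at 1.94, 6.68 and 4.39 in the ND mice and at 5.31 and 2.51 in HFD mice 1 and 2. Klrc2 was at 4.36, 1.14 and 6.09 in the ND mice and at 2.39 and 3.79 in HFD mice 1 and 2. Klrd1 was high in every mouse, whereas the means of both partners varied widely, and each was present in a minority of cells, Klrc1 in 15 and Klrc2 in 19 of 41. The lowest Klrc2 mean fell in ND mouse 2, in which Klrc1 was highest. Of the 36 NK-like cells with Klrd1, 7 had Klrc1 only, 12 had Klrc2 only, 6 had both and 11 (30.6%) had neither. Klrc1, Klrc2 and Klrc3 are near copies, so the split of reads among them is uncertain, and a cell without a partner may have had one below detection.

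Klre1 encodes a lectin-like receptor without a signalling motif of its own that pairs with the products of Klri1 or Klri2. It was at 8.33, 9.17 and 8.71 in NK-like cells of the ND mice and at 9.11 and 6.62 in HFD mice 1 and 2, and was present in 34 of 41 cells. Klra7 encodes Ly49G, an inhibitory receptor for MHC class I that is borne by a part of NK cells. It was at 1.19, 1.60 and 1.81 in the ND mice and at 0.00 and 1.20 in HFD mice 1 and 2, and 5 of 41 NK-like cells had it. It belongs to the family of closely similar Ly49 genes and only reads with 1 unique position were counted, so its level is uncertain. Klrg1 encodes an inhibitory receptor for cadherins found on mature NK and effector T cells. It was at 3.90 in ND mouse 1, at 1.46 and 3.81 in HFD mice 1 and 2 and at 0.00 in both ND mouse 2 and ND mouse 3. The 10 NK-like cells with Klrg1 came from these 3 mice, 3, 1 and 6 of them respectively.

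**Figure D2:**
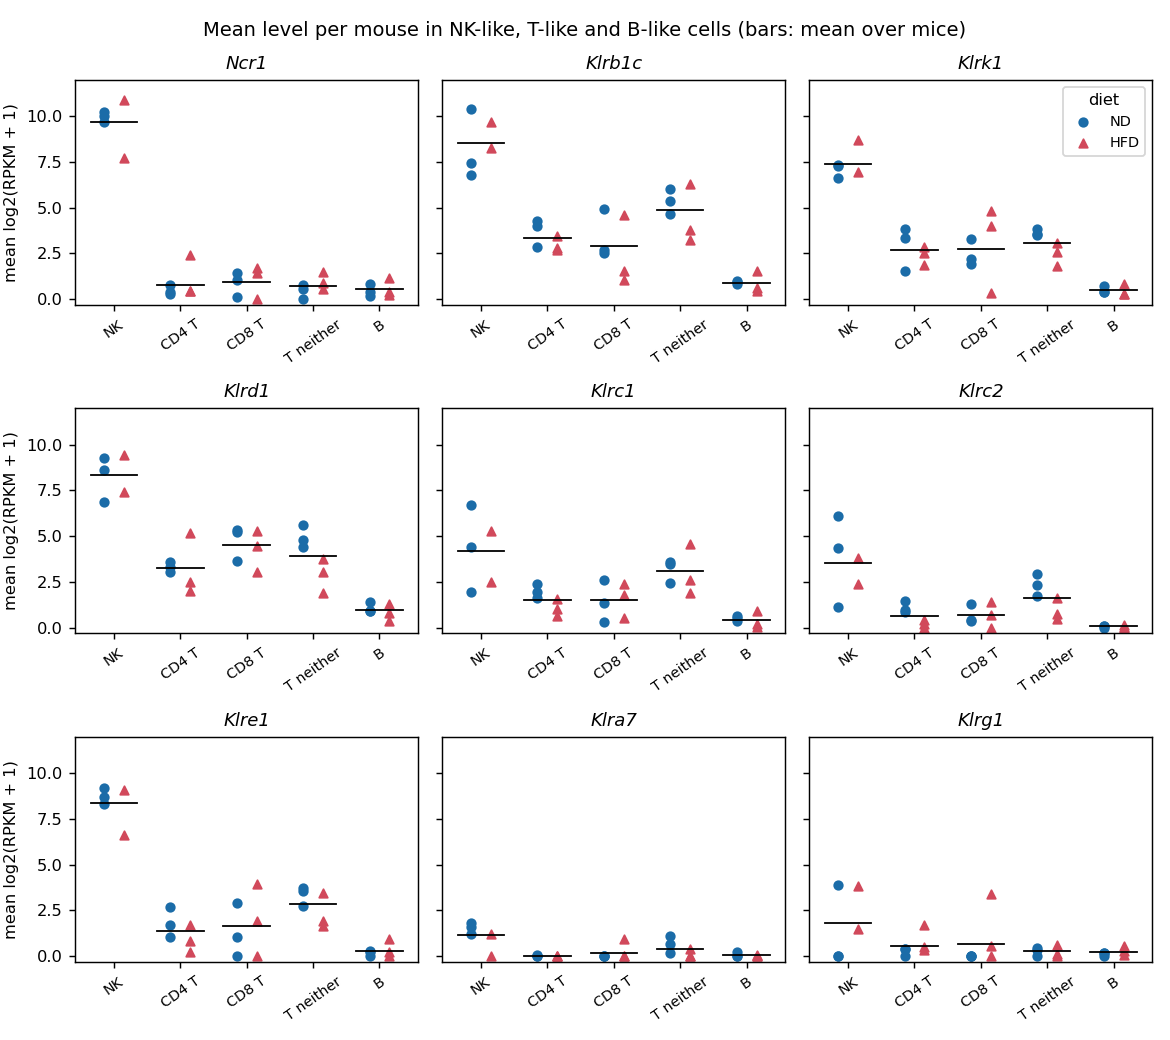
Mean log2(RPKM + 1) per mouse of each receptor gene in NK-like, CD4 T-like, CD8 T-like, T-like cells lacking both co-receptors and B-like cells; circles are ND mice, triangles HFD mice, bars the mean over mice with at least 3 cells. NK-like means of Ncr1 lay between 7.71 and 10.87, far above all other populations, while Klrb1c, Klrd1, Klrk1, Klrc1 and Klre1 were at intermediate levels in T-like cells.

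NK-like and T-like cells of the same mouse were compared with limma over the 5 mice with at least 3 cells of each, with the mouse as a block and Benjamini-Hochberg adjustment over all genes tested. The populations were built from other genes of the same cells, which these p-values do not take into account. Klra7 was below the filter of a mean of 1. Of the 8 genes tested, 6 were higher in NK-like cells, whereas 1.18% of the 4055 genes tested were called higher and 3.21% in either direction. Ncr1 and Klrg1 had T-like means below 1 in these mice and passed the filter through NK-like cells, as they did against each T-like population, and so did Klrc2 against CD4 and CD8 T-like cells, so these counts are not support in themselves. The differences in mean log2(RPKM + 1) were 9.11 ± 0.51 (SE) for Ncr1, 6.41 ± 0.51 for Klre1, 4.73 ± 0.52 for Klrd1, 4.69 ± 0.57 for Klrb1c, 4.61 ± 0.48 for Klrk1 and 2.47 ± 0.55 for Klrc2. Each of the 6 was higher in 5 of 5 mice, for which an exact sign-flip permutation test gives p = 0.0625, the smallest it allows. Adjusted p in limma was 3.48e-09 for Ncr1 and at most 5.89e-05 for the next 4, but 0.0186 for Klrc2. Klrc1 differed by 2.05 ± 0.63 and was higher in 4 of 5 mice (limma adjusted p = 0.0935), and Klrg1 by 1.41 ± 0.62 in 3 of 5 mice (limma adjusted p = 0.290). The Klrc2 call was lost without ND mouse 1, ND mouse 3 or HFD mouse 2, with limma adjusted p of 0.0823, 0.0808 and 0.0765. Averaging RPKM over cells before the logarithm left Ncr1 called and none of the other genes tested. Without the filter on low values Ncr1, Klrk1 and Klre1 were called.

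NK-like cells were also compared with each T-like population. Against CD4 T-like cells, 7 of the 8 genes tested were higher in NK-like cells, where 1.24% of all genes were called higher and 3.18% in either direction. Against CD8 T-like cells 7 of 8 were higher as well, against 0.956% of all genes, or 2.63% in either direction. Klrc1 was called in both, by 2.53 ± 0.64 (limma adjusted p = 0.0314) and 2.73 ± 0.66 (limma adjusted p = 0.0337), but lost the call in 10 of 20 alternatives in each. Klrc2 lost it in 5 of 20 against CD4 and 8 of 20 against CD8 T-like cells, and leaving out each mouse in turn left 5 to 6 genes called against CD8 T-like cells. Against T-like cells lacking both co-receptors, 5 of 8 were higher, against 0.726% of all genes, or 1.55% in either direction. There Klrc1 differed by 0.96 ± 0.68 (95% interval -0.48 to 2.41, limma adjusted p = 0.607) and Klrc2 by 1.67 ± 0.61 (0.38 to 2.97, limma adjusted p = 0.228). Klrb1c differed by 3.29 ± 0.61 from these cells (limma adjusted p = 0.00773), a call lost without ND mouse 3 (limma adjusted p = 0.0769), but by 5.04 ± 0.65 from CD4 and 5.97 ± 0.69 from CD8 T-like cells. These comparisons share the same NK-like cells, and the differences between them were not tested.

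**Figure D3:**
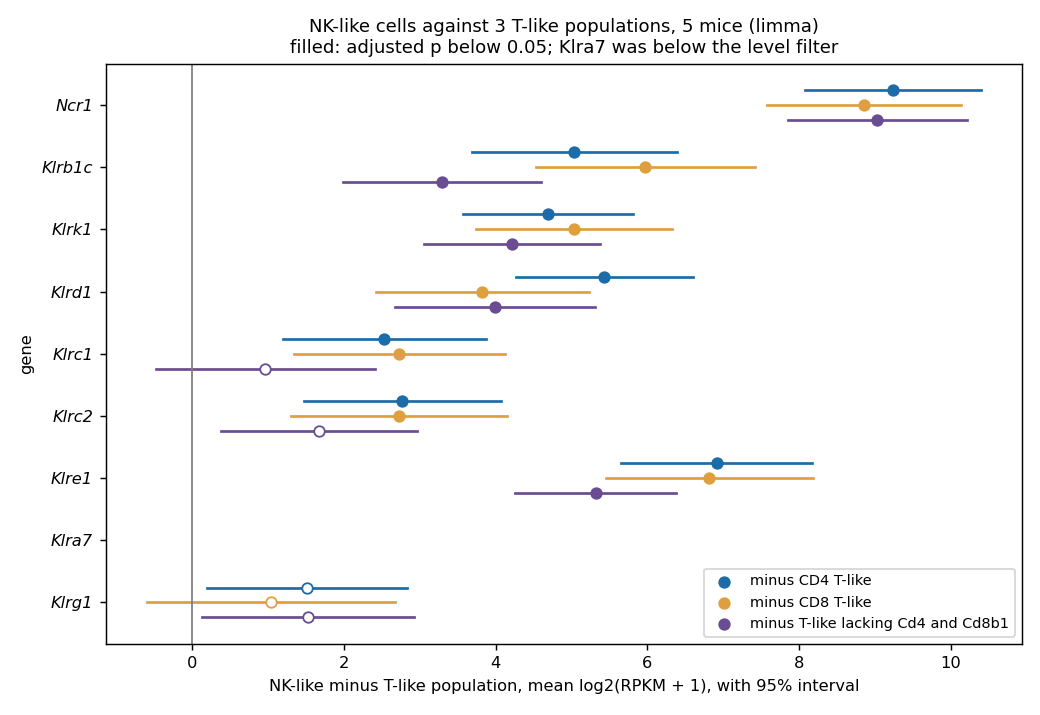
Differences in mean log2(RPKM + 1) between NK-like cells and 3 T-like populations over 5 mice, with 95% intervals; filled points have a limma adjusted p below 0.05, and Klra7 was not tested. Ncr1 differed by 8.85 to 9.23 from each population, while the intervals of Klrc1 and Klrc2 lay lowest against T-like cells lacking both co-receptors.

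T-like cells as a whole carried more of these receptors than B-like cells. In all 6 mice Klrb1c, Klrk1, Klrd1, Klrc1 and Klre1 were higher, and each of these 5 genes tested was called, but 33.7% of all genes tested were called higher as well, and 42.3% in either direction. The differences were 2.90 ± 0.24 (SE) for Klrb1c, 2.53 ± 0.25 for Klrd1, 2.35 ± 0.24 for Klrk1, 1.66 ± 0.23 for Klrc1 and 1.62 ± 0.25 for Klre1. The largest limma adjusted p among them was 4.92e-05. All 5 had B-like means below 1 and passed the filter through their level in T-like cells, so that their number is not support for a difference. Ncr1, Klrc2, Klra7 and Klrg1 were below the filter, with means of 0.70 against 0.53 for Ncr1, 0.95 against 0.07 for Klrc2, 0.19 against 0.05 for Klra7 and 0.40 against 0.20 for Klrg1.

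Cells were pooled over mice for CD4 T-like cells, CD8 T-like cells and those lacking both co-receptors. Of the 9 genes 5 (Klrb1c, Klrc1, Klrc2, Klre1 and Klra7) were most frequent in cells lacking both. The other 4 (Ncr1, Klrk1, Klrd1 and Klrg1) were most frequent in CD8 T-like cells. For Ncr1 the order rests on 2 CD8 T-like cells (3.64% against 3.42% of cells lacking both) and for Klrg1 on 3. The Klrk1 mean over mice was higher in cells lacking both (3.07 against 2.76). CD8 T-like cells needed only 1 RPKM of Cd8b1. Cd8b1 reached 50 RPKM in 1 of 13 with Klrb1c, 6 of 17 with Klrk1 and 0 of 2 with Ncr1. It did so in 16 of 24 with Klrd1 and 2 of 3 with Klrg1. Klrb1c was present in 52.1% of cells lacking both, 35.2% of CD4 and 23.6% of CD8 T-like cells. Klrc1 was present in 32.5%, 18.1% and 12.7%, and Klre1 in 29.1%, 14.3% and 14.5% respectively. Klrk1 was present in 30.9% of CD8 T-like cells and 27.4% of cells lacking both. Klrd1 was present in 43.6% of CD8, 35.04% of cells lacking both and 27.6% of CD4 T-like cells. By mouse, Klrb1c in cells lacking both was at 6.02, 4.67 and 5.37 in the ND mice and 6.29, 3.80 and 3.22 in the HFD mice. In CD8 T-like cells it was at 2.51, 2.71 and 4.96 in the ND mice and 1.04, 1.53 and 4.61 in the HFD mice. The ranges overlapped. No receptor gene passed the test in limma between T-like cells lacking both and CD4 T-like cells, where 4 of 6 had an unadjusted p under 0.05 and 0.0228% of all genes were called, 0% of them higher in cells lacking both. None passed between cells lacking both and CD8 T-like cells (3 of 6 unadjusted, 0.134% of all genes called and 0.0447% higher in cells lacking both) or between CD4 and CD8 T-like cells (1 of 5 unadjusted, 0.0664% of all genes called and 0.0221% higher in CD4 T-like cells). Klrb1c was higher in cells lacking both than in CD8 T-like cells by 2.003 ± 0.64, in 5 of 6 mice (limma adjusted p = 0.405). When Cd4 and Cd8b1 were counted from 10 or 50 RPKM, above the single reads that also placed Cd4 in 16.7% and Cd8b1 in 16.3% of B-like cells, the difference was 3.41 ± 0.66 and 3.51 ± 0.60 (limma adjusted p = 0.0261 and 0.00709). It was also called without HFD mouse 3, at 2.68 ± 0.59 (limma adjusted p = 0.0472), whereas without HFD mouse 1 it was 1.35 ± 0.64 (limma adjusted p = 0.699). Cells lacking both were shallower, with a median of 113601 reads against 198686 in CD8 T-like cells, and the part of depth in this difference was not tested.

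Of the 120 T-like cells with Klrb1c, 1 had Cd8b1 at 50 RPKM or more, against 21.1% of the cells without Klrb1c. In each mouse the cells with Klrb1c included 0 or 1 with Cd8b1, while those without Klrb1c included 3 to 15. Klrb1c was found with Cxcr6, a chemokine receptor of liver-resident lymphocytes, in 81.7% of cells, whereas Cxcr6 was present in 55.7% of T-like cells without Klrb1c. Over mice, Klrb1c was higher in T-like cells with Cxcr6 than in those without by 1.96 ± 0.50 in 5 of 5 mice, and did not pass at the detection level of 1 RPKM (limma adjusted p = 0.0814). None of the 5 receptor genes tested passed, 0.71% of all genes were called, 0.588% as higher, and 509 genes had an unadjusted p under 0.05. At that level Cxcr6 was also present in 55.3% of B-like cells. Counted from 10 or 50 RPKM, at which 23.6% and 1.63% of B-like cells had it, the Klrb1c difference was 2.51 ± 0.40 and 2.01 ± 0.38 (limma adjusted p = 0.0033 and 0.012). With the cells split by Zbtb16 in place of Cxcr6, the Klrb1c difference was 0.55 ± 0.53 (limma adjusted p = 0.858). T-like cells without Cxcr6 had a median of 86096 reads against 164767 in those with it, and the part of depth was not tested.

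The 45 T-like cells with 4 or more of the genes came from all 6 mice. Klre1 was present in 41 of them, Klrk1 in 40, Klrb1c in 36 and Klrd1 in 34, but Ncr1 in only 7. Cd4 was present in 8.89% and Cd8b1 in 4.44% of these cells, against 32.7% and 14.6% of the other 260 T-like cells. They included cells with Tbx21, the gene of the T-bet factor (68.9% against 46.9%), and with Zbtb16, the gene of the NKT cell factor PLZF (13.3% against 5%). Ccr7, a marker of naive T cells, was present in none of them and in 17.3% of the others. Cd3e was present in 95.6% and 93.8%. Tyrobp, the gene of the adaptor DAP12, was present in 48.9% against 20%. Of the 45 cells 7 came from the NK cluster, all of them with Tyrobp, and in the 38 from T clusters, 13.1% of T-like cells there, its share was 39.5%. They were deeper, with a median of 186146 against 136521 reads, and the part of depth in these shares was not tested.

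The partners of CD94 were counted in T-like cells too. Of 100 T-like cells with Klrd1, 61 had neither Klrc1 nor Klrc2 at 50 RPKM, including 19 of 24 CD8 T-like cells and 16 of 29 CD4 T-like cells. Klrc1 and Klrc2 were found together in 24 of the 68 and 33 T-like cells that had them, so 35.3% of cells with Klrc1 had Klrc2, and 3.80% of those without Klrc1 did. In NK-like cells the corresponding shares were 40% and 50%. Between populations these shares were not tested.

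Outside NK-like and T-like cells, Klrd1 stood out in plasmacytoid dendritic cell (pDC)-like cells, the interferon-producing cells marked by Siglech. Its mean was 4.92 in ND mouse 1 and 6.49, 3.19 and 8.45 in HFD mice 1, 2 and 3, the other 2 mice having 1 such cell each. It was present in 14 of 21 pDC-like cells (66.7%, 95% Wilson interval 45.4 to 82.8), from all 6 mice, with a median of 41 reads where found. None of the 14 had Klrc1 or Klrc2, and no other of the 9 genes was present in any of the 21 cells, where a count of 0, taken to allow 3 cells, allows up to 14.3%. Klrk1 was present in 20 of 233 Kupffer-like cells (8.58%, 95% Wilson interval 5.63 to 12.9) and 3 of 37 cells of the monocyte-derived macrophage or dendritic class. Each mouse contributed 1 to 4 of the 20 Kupffer-like cells. Their median was 2 reads where Klrk1 was found at all.

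**Figure D4:**
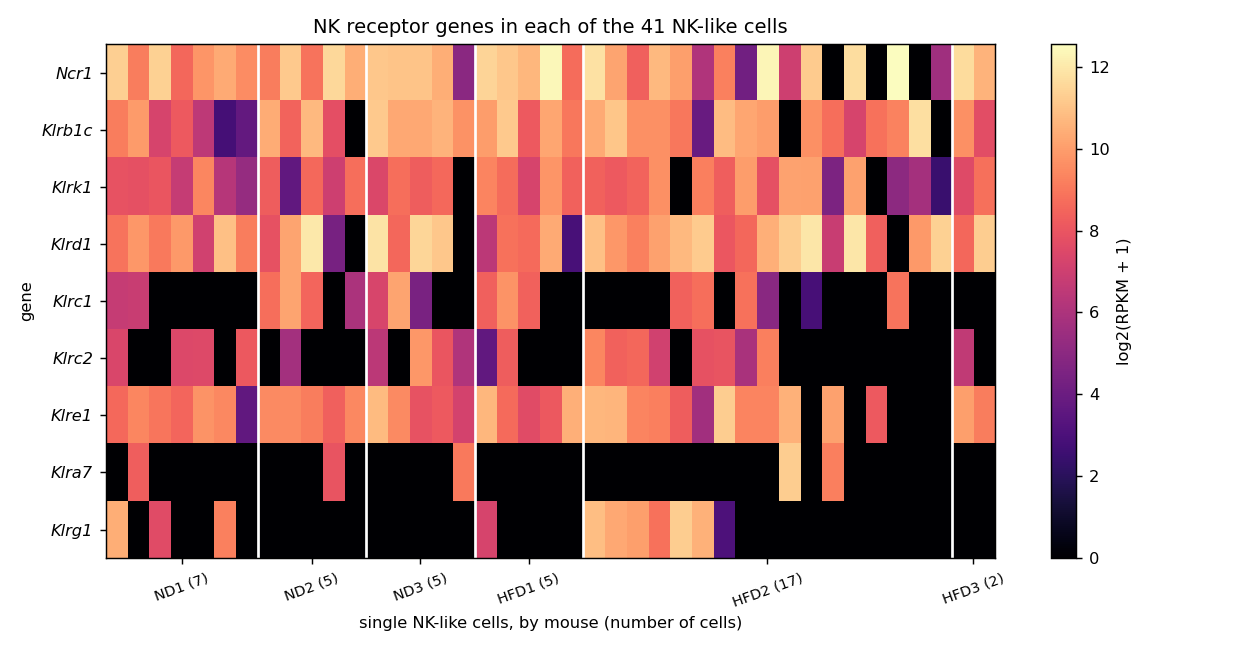
Level of the 9 receptor genes, as log2(RPKM + 1) from black (0) to pale, in each of the 41 NK-like cells (columns, grouped by mouse). Ncr1, Klrb1c, Klrk1, Klrd1 and Klre1 were present in most cells, while Klrc1, Klrc2, Klra7 and Klrg1 were at 0 in many cells, and the 10 cells with Klrg1 lay in ND mouse 1 and HFD mice 1 and 2.

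Within NK-like cells, those with Klrg1 were set beside those without. All 10 cells with Klrg1 had Klrd1, Ncr1, and Gzma and Prf1, the genes of granzyme A and perforin. Most of the 31 others had them too, Gzma in 28, Klrd1 in 26, Ncr1 in 25 and Prf1 in 20. S1pr5, which encodes a sphingosine phosphate receptor of circulating NK cells, was present in 9 of the 10 and in 14 of the 31. Xcl1, which encodes a chemokine, was present in 0 of the 10 and in 17 of the 31, and Cxcr6 in 0 of 10 and 7 of 31. In HFD mouse 2, which gave 6 of the 10 cells, S1pr5 was present in 5 of 6 cells with Klrg1 and 4 of 11 without, and Xcl1 in 0 of 6 and 6 of 11. In ND mouse 1 the contrast was smaller, with S1pr5 in 3 of 3 cells with Klrg1 and 3 of 4 without, Prf1 in 3 of 3 and 4 of 4, and Xcl1 in 0 of 3 and 1 of 4. Median depth was 78661 reads with Klrg1 and 84279 without in HFD mouse 2, but 157743 and 126731 in ND mouse 1 and 255909 and 194029 in HFD mouse 1, and the part of depth was not tested. S1pr5, Xcl1, Prf1 and Gzma were among the genes that named the cluster, and cells of a mouse are not replicates, so these shares carry no test. For Klrc1, Cma1, a mast cell protease gene also found in NK cells, was present in 1 of 15 cells with Klrc1 and 12 of 26 without, and Cxcr6 in 5 of 15 and 2 of 26.

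The factor Eomes separates conventional NK cells from type 1 innate lymphoid cells. It was at 1 RPKM or more in 20 of the 41 NK-like cells. With at least 2 cells on either side, 3 mice could be compared (limma, 3793 genes tested). No receptor gene and 0% of all genes were called, with 3.77% of genes at an unadjusted p under 0.05, among them Klrc2. Klrc2 was at 3.18 with Eomes and 6.36 without, and lower with Eomes in 3 of 3 mice (limma adjusted p = 0.962). With both genes counted at 50 RPKM over all 41 cells, Eomes was present in 26.3% of cells with Klrc2 and 27.3% of those without. Cells with Eomes were deeper, with a median of 152766 reads against 84279, and the part of depth was not tested. At this number of mice the exact test allows no p below 0.25.

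Other genes of NK cells were compared in the same fit of NK-like against T-like cells, in lists chosen with earlier results of these data known. Over all genes tested the median difference was -0.20. Of the other lectin genes of the NK complex 15 were in the table and 7 were tested, of which 5 were higher in NK-like cells and 2 did not pass (median difference 2.99), and the named ones passed the filter through NK-like cells only, so that neither value is support in itself. They included Klra23 (4.52 ± 0.63), Klri2, the partner of Klre1 (3.39 ± 0.53), Klrb1b (3.08 ± 0.51) and Klrb1a (2.99 ± 0.50), each with a limma adjusted p of at most 0.00180. Of 17 adaptor and signal genes tested, 5 were higher, 2 lower and 10 did not pass. Tyrobp, whose product signals for NKG2C and activating Ly49 receptors, was higher by 7.96 ± 0.48, and Fcer1g, whose product signals for NKp46, by 7.40 ± 0.54. Lat2 (3.04 ± 0.67) and Plcg2 (2.75 ± 0.57) were higher as well, but with T-like means of 0.69 and 0.59 they too passed the filter (a mean of at least 1) through NK-like cells only, so the count of 5 is no support in itself. Hcst, which encodes DAP10, the adaptor of NKG2D, was at 8.37 ± 1.13 (SD, n = 5 mice) in NK-like and 8.26 ± 1.06 (SD, n = 6 mice) in T-like cells. The genes Lat and Plcg1, which act downstream of the T cell receptor, were lower by -4.59 ± 0.55 and -3.11 ± 0.49, although Lat was also a marker that named T clusters.

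Of 9 other NK receptor genes tested, Cd244 (3.15 ± 0.60) and Il18rap (2.48 ± 0.61) were higher, Cd226 was lower (-3.12 ± 0.70) and 6 did not pass. Of 4 tested genes of ligands none passed, H2-D1 and H2-K1, the classical MHC class I genes read by Ly49 receptors, which were named after their values were seen, lying at 11.65 and 11.98 in NK-like and 11.36 and 11.95 in T-like cells. Of 8 regulators Eomes (2.51 ± 0.57) and Tbx21 (1.89 ± 0.48) were higher, Tcf7 was lower (-2.73 ± 0.55) and 5 did not pass. Cd244 and Eomes, with T-like means of 0.61 and 0.29, passed the filter through NK-like cells only, and Tcf7, with an NK-like mean of 0.87, through T-like cells only. Eomes and Il18rap were also markers that named clusters, so their differences are not independent of the grouping. Of 9 effectors 5 were higher, led by Gzma (10.36 ± 0.49), Prf1 (5.98 ± 0.52), Gzmb (4.37 ± 0.59) and Ccl5 (3.88 ± 0.50). Of the 10 effectors listed 6 were among the genes that named clusters, so their difference is not independent of how the cells were grouped.

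Over 66 means of a population in a mouse, the receptor genes followed each other to different degrees, as a description, since the means share libraries and depth. Pearson's r was 0.91 between Klre1 and Ncr1, 0.90 between Klre1 and Klrk1, 0.88 between Klrb1c and Klrc1, but 0.65 between Klrc1 and Klrc2 and 0.27 between Klra7 and Klrg1. Among 4159 genes outside the lists and the Klr family, Ifitm10, of the interferon-induced transmembrane family, had the highest r with Ncr1 (0.79), Klrb1c (0.88), Klrk1 (0.85), Klrc1 (0.84), Klrc2 (0.79) and Klre1 (0.90). Serpinb9, whose product inhibits granzyme B, was second for Ncr1 (0.79) and Klre1 (0.76). Cd7 came first for Klrd1 (0.77), Cst7 for Klra7 (0.68) and Ide for Klrg1 (0.55).

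No receptor gene was called between the diet groups. In NK-like cells all 9 genes were tested over 3 ND and 2 HFD mice, 0 were called and 0% of all genes were, with 5.36% of 3768 genes at an unadjusted p under 0.05 and none of the 9 among them. The largest differences, HFD minus ND, were 1.33 ± 1.26 (SE) for Klrg1 and -0.93 ± 1.05 for Klra7. The ND and HFD values overlapped for all 9 genes, whereas 18.7% of all genes lay lower and 2.92% higher in HFD without overlap. The median difference of all genes was -0.49, and 1 of the 2 HFD mice was HFD mouse 2, lowest in reads and in genes detected. Their part in these values was not tested. The 95% intervals reached from -1.71 to 3.21 for Klrb1c and from -3.03 to 1.66 for Ncr1. With 3 against 2 mice the exact permutation test allows no p below 0.1, so the lack of calls in NK-like cells does not show that the diets were alike.

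In T-like cells 0 of the 5 receptor genes tested and 0% of all genes were called, with 3.49% of 4443 genes at an unadjusted p under 0.05. Klrd1 was at 4.03, 3.58 and 4.30 in the ND mice and 3.22, 2.87 and 2.89 in the HFD mice, and was the only 1 of the 5 whose diet groups did not overlap, as did 6.66% of all genes tested in the lower and 0.293% in the higher direction. Its difference was -0.97 ± 0.52 (limma adjusted p = 0.9995). In T-like cells lacking both co-receptors 0 of 6 were called, as were 0% of all genes, with 3.92% of genes at an unadjusted p under 0.05. Klrd1 was there at 4.41, 4.80 and 5.62 in the ND mice and 3.78, 3.04 and 1.89 in the HFD mice. Klrk1 was at 3.83, 3.53 and 3.58 against 3.06, 1.82 and 2.60, and Klrc2 at 2.32, 1.76 and 2.94 against 1.65, 0.74 and 0.48. For these 3 of the 6 genes every HFD mouse lay below every ND mouse, as for 7.87% of all genes tested, against 0.688% in the other direction, and the differences were -2.04 ± 0.70, -1.15 ± 0.66 and -1.38 ± 0.68. The limma adjusted p was 0.9998 for each, and the exact permutation test gave p = 0.1, the smallest for 3 against 3. The median difference of all genes was -0.25 in these cells, and HFD mouse 2 had the fewest genes detected of all mice; their part in these values was not tested.

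Whether the diet difference was not the same in NK-like and T-like cells was tested on the difference between both populations within 5 mice. None of the 8 genes tested passed in limma and 0% of all genes did, with 4.29% of 4055 genes at an unadjusted p under 0.05. The largest difference of the 8 was that of Klrk1, whose NK-like minus T-like values averaged 5.41 in the 2 HFD mice and 4.08 in the 3 ND mice (1.33 ± 0.98, limma adjusted p = 0.993).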

How the data were processed

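Per the labels and the study's methods, the authors sorted live NPCs of 6 mice singly, prepared Smart-seq2 libraries and mapped single reads of 50 bases with STAR on mm10. From reads with 1 unique position, rpkmforgenes gave the RPKM values of RefSeq genes that the authors deposited. Cells failing quality checks and doublets found by Scrublet had been removed. There were no molecular identifiers, so Wilson intervals and limits of detection cover counting error only. The intervals of limma differences rest on the variance between mice instead. The deposited table holds no counts. Reads per cell were estimated from the steps of low values and transcript lengths. A median of 73.2% of low values lay within 0.1 of a whole number of reads, so no count test was run. Of 20 simulated cells 19 were recovered within 2%. These were built from whole reads and exact transcript lengths, so they do not test the effect of wrong lengths.

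Cells were clustered on 1000 variable genes, centred within each mouse, with 20 principal components and 15 nearest neighbours, after 27 Klr and member genes had been left out. The 13 clusters were named from markers. The centring, the rule for the number of clusters and the division of NK-like from T-like cells at 50 RPKM of Cd3d or Cd3e were set after clusters had been seen. Log2(RPKM + 1) was averaged over the cells of a population in a mouse with at least 3 cells (2 in the Eomes split), and genes with a mean of at least 1 were tested with limma 3.58.1 in R 4.3.3, with the mouse as a block within mice and Benjamini-Hochberg adjustment. Exact permutation tests were two-sided. Mice are the replicates. All 14 fits used the same test, which was tried on simulated data with shifted genes for some of them. A log2 shift of 2 was recovered in 42.5% of shifted genes between NK-like and T-like cells and 39.5% between diets in T-like cells. Of their calls 5.56% and 3.66% were not shifted genes. Between T-like cells lacking both and CD4 T-like cells the shares were 74.5% and 9.70%. In the diet comparison of NK-like cells no shifted gene was recovered, also at a shift of 4. Diet fits carried no block, because same-numbered ND and HFD mice did not deviate together in every pair (r = 0.16, 0.02 and 0.11).

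The 9 genes and all lists were chosen with earlier results of these data known. Named list genes were those with an adjusted p below 0.05 between NK-like and T-like cells, at most 4 in each direction per list. Genes set beside the receptors in single cells, and Hcst, were named after their values were seen. Python 3.11.15, numpy 2.4.6, pandas 2.3.3, scipy 1.17.1, scikit-learn 1.9.0 and matplotlib 3.10.9 were used. The shares of 1 gene in single T-like cells are not reported here.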

Additional observations from a re-analysis of the deposited data

How the results depend on the processing

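For the called differences of single receptor genes, 510 of 577 alternative values kept direction and call, 67 kept the direction but lost the call and 0 turned. The alternatives reuse the same cells and are not independent. Lost calls were most frequent for Klrc1, in 10 of 20 each against CD4 and CD8 T-like cells. For Klrc2 they were 6 of 18 against T-like, 5 of 20 against CD4 and 8 of 20 against CD8 T-like cells. Of the receptor genes called higher in NK-like cells, no filter on low values left 3 against T-like, 2 against CD4, 3 against CD8 T-like cells and 2 against T-like cells lacking both co-receptors, and averaging RPKM before the logarithm left 1, 1, 1 and 0. The cause was not tested for either. Leaving out each mouse gave 5 to 6, 5 to 7, 5 to 6 and 4 to 5 called genes. Between T-like cells lacking both and CD8 T-like cells 1 gene, Klrb1c, was called with detection from 10 or 50 RPKM, and 0 to 1 on leaving out each mouse, with 1 without HFD mouse 3. Between T-like cells with and without Cxcr6, Klrb1c was the 1 gene called with weights for the number of cells, detection from 10 or 50 RPKM or no division by Cd3d and Cd3e, and the cause was not tested. Detection from 50 RPKM, both other levels of that division and at least 2 cells per mouse were chosen after seeing the data.

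With the replicate number as a block, 0 receptor genes were called in each of the 4 diet comparisons, as without it. ND mouse 2 correlated best with HFD mouse 1 (r = 0.04), so the numbers were not read as a pairing. The Eomes split could not be fitted with at least 5 cells or with the division at 10 RPKM, which left 1 mouse. With 2 HFD mice in the NK-like comparison and 41 NK-like cells in all, the number of mice and cells limits what the diet comparison can show.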
